A study of Mus musculus with 8 samples.

Results

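Transcripts of 10 genes that carry or oppose the insulin signal in fat, or that bring glucose into the cell, were followed: the receptor gene Insr, the substrate genes Irs1 and Irs2, the inhibitor genes Grb10 and Grb14, the relay genes Pik3r1, Akt2 and Tbc1d4, and the transporter genes Slc2a1 and Slc2a4. They were chosen by name, with earlier results of these data known, and all 10 were found among the 28295 genes of the expression table. The tissue was epididymal white fat of male mice given a Western diet for 8 weeks and fasted for 6 h before it was taken. The WT group (4 libraries) had Cul3-flox/flox alleles and no Cre, and the group labelled KO (4 libraries) had AdipoQ-Cre;Cul3-flox/flox, in which Cre is driven by an adiponectin promoter that is active in adipocytes and not meant to act in the other cells of fat. Cul3 encodes cullin 3, a ubiquitin ligase scaffold, and the comparison asks what changes in fat when it is deleted in adipocytes. Values are FPKM (fragments mapped to a gene, divided by its length in kilobases and by each 1000000 fragments mapped in all), which are per length and so allow levels of different genes to be compared. The ages of the mice and the mouse behind each library are not given in the labels, so the p-values measure the spread between libraries.

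Insulin binds its receptor tyrosine kinase at the cell surface, and the receptor phosphorylates the IRS proteins. These recruit PI3 kinase, whose lipid product activates AKT, and AKT2 is the form that matters most for glucose uptake in adipocytes. AKT phosphorylates the Rab GTPase-activating protein TBC1D4 (AS160), which releases a brake on vesicles carrying the transporter GLUT4 (Slc2a4) to the surface, while GLUT1 (Slc2a1) serves basal uptake.

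Recovered depth was 17.7 to 19.7 M reads (M, 1000000) in listed genes per WT library and 15.2 to 18.7 M per KO-labelled library, which was 74.1% to 78.7% and 62.6% to 66.1% of the FPKM denominator. Under the KO label Cul3 was not lower, at 11.2 ± 1.13 FPKM in WT against 12.0 ± 1.29 FPKM (SD, n = 4; log2 fold change 0.09, limma adjusted p = 0.520), and scaling each library to sum to 1000000 put it higher (0.37, adjusted p = 0.0477). The table holds 1 value for the whole gene and the floxed exons were not measured apart, so the labels were not checked by it, the group is called KO-labelled and every direction rests on the labels. The tissue label was matched by its markers, since the 10 adipocyte markers summed to 4683 to 7577 FPKM in WT libraries and 2744 to 3584 FPKM in KO-labelled ones. Of these markers 9 were called lower (Cfd was not), beside 18.6% of all tested genes. Several libraries stood apart. WT4 (1135 FPKM) had a macrophage marker sum above every other library and KO4 (467 FPKM) had the lowest of its group, against 354 to 447 FPKM in the other WT libraries and 842 to 1075 FPKM in the other KO-labelled ones. Hepatocyte markers summed to 136 FPKM in WT1 and 498 FPKM in WT2, against 38.2 and 19.3 FPKM in WT3 and WT4 and 7.53 to 20.1 FPKM in the KO-labelled libraries. Epididymis markers summed to 53.2 FPKM in WT2 and 214 FPKM in KO1, and to at most 8.43 FPKM elsewhere. Of 8 endothelial markers 7 were called lower, beside the same 18.6% of all tested genes. Their sums were 182 to 255 FPKM in WT libraries and 125 to 148 FPKM in KO-labelled ones. The part of other cell types in the results on the 10 genes was not tested. In bulk fat, fewer cells of a type and less RNA per cell cannot be told apart.

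In the KO-labelled fat, 4 of the 10 genes were higher and 2 were lower. The receptor Insr, the substrates Irs1 and Irs2 and the transporter Slc2a1 rose by 0.33 to 0.50 on the log2(FPKM + 0.5) scale, while the receptor inhibitor Grb14 and the insulin-responsive transporter Slc2a4 fell. Grb10, Pik3r1, Akt2 and Tbc1d4 did not pass the test. Calls were made at an adjusted p under 0.05 (limma, Benjamini-Hochberg over 14400 genes), and the same rule called 11.7% of all tested genes higher and 18.6% lower. All 10 genes passed the filter of a mean of at least 0.5 FPKM. The median log2 fold change of the 10 genes was 0.15, and that of all genes was -0.02. For 3 of the genes every KO-labelled library was above every WT library (Insr, Irs2 and Slc2a1), as for 12.1% of all tested genes. For Grb14 every KO-labelled library was below every WT library, as for 19.1% of them. Only Insr and Grb14 kept their call whichever single library was left out.

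**Figure D1:**
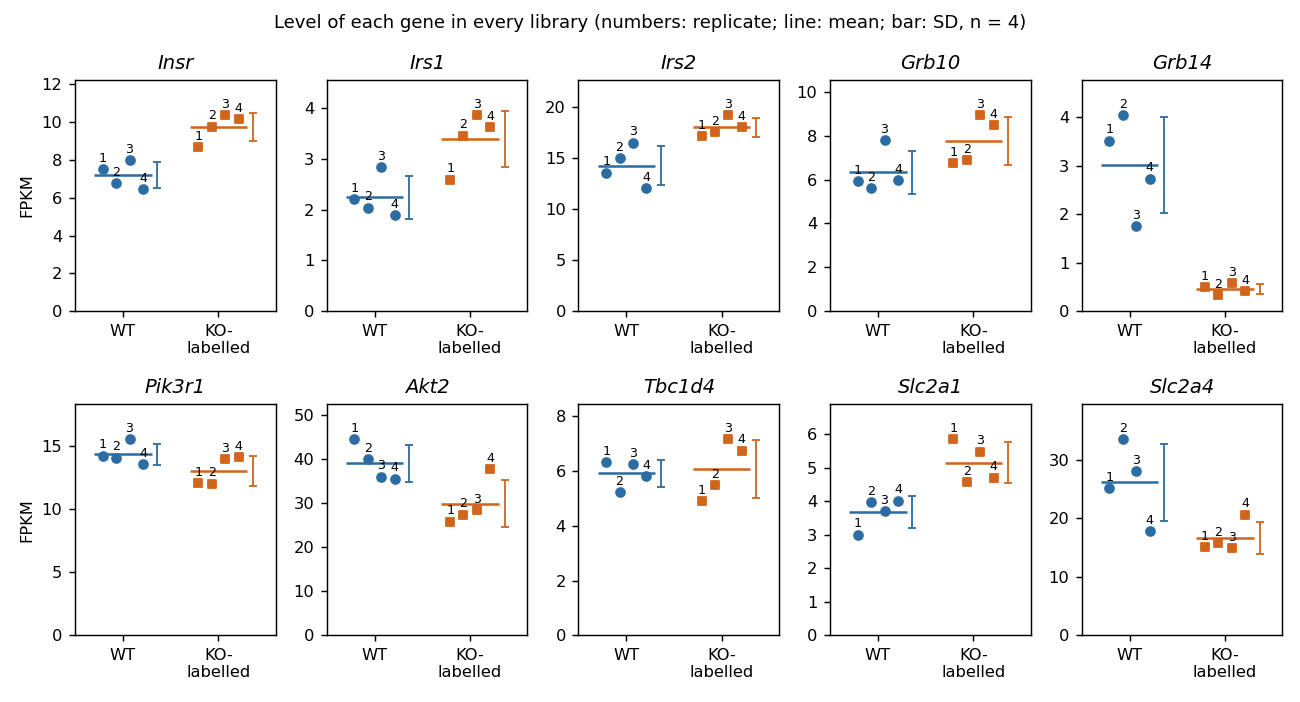
Level of each of the 10 genes (vertical axes, FPKM, each starting at 0) in the 4 WT libraries (blue circles) and the 4 KO-labelled libraries (orange squares), numbered by replicate, with the mean as a line and the SD as a bar beside it. The groups are apart for Insr, Irs2, Slc2a1 and Grb14 and overlap for the other 6 genes.

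Insr (ENSMUSG00000005534, chromosome 8, 3122061 to 3279617, minus strand), which encodes the insulin receptor, was at 7.51, 6.77, 7.99 and 6.48 FPKM in WT1 to WT4 and at 8.67, 9.76, 10.4 and 10.2 FPKM in KO1 to KO4. The lowest KO-labelled library (KO1) lay above the highest WT library (WT3). The mean rose from 7.18 ± 0.690 to 9.75 ± 0.761 FPKM (SD, n = 4), a log2 fold change of 0.42 ± 0.09 (SE, adjusted p = 0.00919) and a KO-labelled to WT ratio with a 95% interval of 1.16 to 1.54. Without WT1 and WT2, the libraries with the most hepatocyte transcripts, the fold change was 0.41 and the call was lost (adjusted p = 0.0747).

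The substrates Irs1 and Irs2, the docking proteins that link the receptor to PI3 kinase, were both higher. Irs1 (ENSMUSG00000055980, chromosome 1, 82233101 to 82291416, minus strand) was at 2.21, 2.04, 2.84 and 1.89 FPKM in WT1 to WT4 and at 2.60, 3.46, 3.87 and 3.63 FPKM in KO1 to KO4. The groups overlapped, because KO1 lay below WT3. Irs1 rose from 2.25 ± 0.419 to 3.39 ± 0.554 FPKM (SD, n = 4; log2 fold change 0.50 ± 0.14, adjusted p = 0.0270), the largest fold change among the 4 higher genes. The call was kept without WT3 or without KO1 and lost without any other single library (adjusted p 0.0539 to 0.0784), and it was 0.175 without WT1 and WT2. Irs2 (ENSMUSG00000038894, chromosome 8, 10984681 to 11008458, minus strand) was at 13.6, 14.95, 16.5 and 12.0 FPKM in WT1 to WT4 and at 17.1, 17.6, 19.2 and 18.05 FPKM in KO1 to KO4. The groups did not overlap, and the KO-labelled libraries lay closer together than the WT libraries. The mean rose from 14.3 ± 1.92 to 17.98 ± 0.895 FPKM (SD, n = 4; log2 fold change 0.33 ± 0.10, adjusted p = 0.0359). This call too was kept without WT3 or without KO1 and lost without any other single library (adjusted p 0.0546 to 0.0969), and it was 0.156 without WT1 and WT2. Exons of Irs1 and Irs2 overlap a gene on the opposite strand (Gm9747 over 2822 bases and 9530052E02Rik over 162 bases), and whether the counting used strand is not stated in these sources, so shared reads were not separated.

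The promoters of Irs1 and Irs2 are shown because these substrate genes were called in the same direction and their windows share a stretch of letters. RefSeq windows (build GRCm38.p6, from 250 bases before to 50 bases after an annotated start) matched 8 of the 10 genes, in 13 windows, and Insr and Slc2a4 were not among them. The 250 bases before the start are printed 5′ to 3′ on the gene's strand, from chr1:82291440-82291689 for Irs1 and chr8:11008930-11009179 for Irs2, both on the minus strand. Capitals mark a run in which the antioxidant response element core (TGACNNNGC, here on the opposite strand) and an E-box (CACGTG) overlap.
Irs1: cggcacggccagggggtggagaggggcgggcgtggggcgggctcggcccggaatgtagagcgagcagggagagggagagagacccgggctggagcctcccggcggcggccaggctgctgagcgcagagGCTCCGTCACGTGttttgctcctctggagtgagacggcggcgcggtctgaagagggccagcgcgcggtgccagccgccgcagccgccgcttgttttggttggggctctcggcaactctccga
Irs2: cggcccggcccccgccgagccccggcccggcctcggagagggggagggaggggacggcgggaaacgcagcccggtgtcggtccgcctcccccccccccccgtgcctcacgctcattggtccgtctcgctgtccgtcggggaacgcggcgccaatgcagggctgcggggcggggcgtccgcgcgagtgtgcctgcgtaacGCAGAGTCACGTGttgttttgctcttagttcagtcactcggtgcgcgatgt
Counted from the annotated start, the element core began at -122 in Irs1 and -51 in Irs2, and the E-box at -115 and -44. The longest runs these 250 bases share are GTCACGTGTT and TGTTTTGCTC, of 10 bases each. The second run starts within the first in both genes, and their overlap is longer in Irs1 than in Irs2. Over both strands the element core was in 2 of the 13 windows and in 12.4% of the 32851 promoters of the table, and the E-box was in 2 of 13 and in 7.15%. The overlap of the element core with an E-box was looked for after it had been noticed in these windows, and 0.307% of all promoters (101) hold it. The FOXO motif GTAAACA was in 0 of the 13 windows and in 3.65% of all promoters. TATAAA was in 1 window each of Pik3r1 and Slc2a1 and in 13.6% of all promoters. Such matches describe letters and are not sites of binding.

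The inhibitors GRB10 and GRB14 are related adaptor proteins that bind the activated receptor and dampen its kinase, and only Grb14 passed the test. Grb14 (ENSMUSG00000026888, chromosome 2, 64912476 to 65024987, minus strand) was at 3.52, 4.05, 1.75 and 2.73 FPKM in WT1 to WT4 and at 0.492, 0.329, 0.580 and 0.416 FPKM in KO1 to KO4. Every KO-labelled library lay well below the lowest WT library (WT3), and the lowest of the 8 values rests on 58 recovered reads. The mean fell from 3.02 ± 0.999 to 0.454 ± 0.107 FPKM (SD, n = 4), a ratio of means of 6.63 in favour of WT. The log2 fold change was -1.84 ± 0.21 (adjusted p = 0.000513), where the added 0.5 understates the change of so low a gene. Across the leave-one-out fits the fold change was -2.04 to -1.70 and the call was kept in 8 of 8. Hepatocyte markers were highest in WT1 and WT2, where Grb14 was also highest. Without those libraries the fold change of Grb14 was -1.51 (limma adjusted p = 0.00711). The hepatocyte sum of WT3 (38.2 FPKM) was still above every KO-labelled library (7.53 to 20.1 FPKM). That of WT4 (19.3 FPKM) lay within the KO-labelled range, and Grb14 was at 2.73 FPKM in WT4. The part of liver transcripts in the Grb14 values was not tested. Grb10 (ENSMUSG00000020176, chromosome 11, 11930508 to 12038683, minus strand) was at 5.94, 5.62, 7.79 and 5.97 FPKM in WT1 to WT4 and at 6.77, 6.89, 8.95 and 8.47 FPKM in KO1 to KO4. WT3 was as high as the KO-labelled libraries and the other WT libraries were below all of them. The difference did not pass the test (log2 fold change 0.28 ± 0.13, adjusted p = 0.129), but it did without WT3 (0.37, adjusted p = 0.0461).

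Of the relay genes, none passed the test. Pik3r1 (ENSMUSG00000041417, chromosome 13, 101680563 to 101768217, minus strand), the main regulatory subunit of class I PI3 kinase, was at 14.3, 14.1, 15.5 and 13.6 FPKM in WT1 to WT4 and at 12.1, 12.0, 14.0 and 14.1 FPKM in KO1 to KO4. The KO-labelled values fell into a lower pair (KO1 and KO2) and a pair within the WT range (log2 fold change -0.14 ± 0.08, adjusted p = 0.241). Akt2 (ENSMUSG00000004056, chromosome 7, 27591552 to 27640826, plus strand) was the highest of the 10 genes in both groups. It was at 44.4, 40.0, 35.99 and 35.5 FPKM in WT1 to WT4 and at 25.8, 27.4, 28.5 and 37.7 FPKM in KO1 to KO4. KO4 alone of its group lay within the WT range. The log2 fold change of -0.39 ± 0.13 missed the threshold (adjusted p = 0.0527), and it passed without KO4 (-0.51, adjusted p = 0.00964) and without both WT4 and KO4 (-0.55, adjusted p = 0.00670). Tbc1d4 (ENSMUSG00000033083, chromosome 14, 101442360 to 101609191, minus strand) was at 6.31, 5.24, 6.26 and 5.82 FPKM in WT1 to WT4 and at 4.89, 5.49, 7.15 and 6.74 FPKM in KO1 to KO4. The KO-labelled libraries spanned the whole WT range and beyond, and the KO-labelled to WT ratio had a 95% interval of 0.840 to 1.23 (log2 fold change 0.03 ± 0.12, adjusted p = 0.892).

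The transporter transcripts moved in opposite directions. Slc2a1 (ENSMUSG00000028645, chromosome 4, 119108711 to 119137983, plus strand), which encodes GLUT1, was at 3.01, 3.98, 3.71 and 4.03 FPKM in WT1 to WT4 and at 5.85, 4.58, 5.49 and 4.71 FPKM in KO1 to KO4. The groups did not overlap. The mean rose from 3.68 ± 0.468 to 5.16 ± 0.611 FPKM (SD, n = 4; log2 fold change 0.44 ± 0.11, adjusted p = 0.0183), and the call was lost only without KO3 (0.0552) among the single libraries. Without WT1 and WT2 the adjusted p was 0.1002. Its exons overlap those of the antisense gene Gm12868 over 105 bases, whose reads were not separated. Slc2a4 (ENSMUSG00000018566, chromosome 11, 69942539 to 69948188, minus strand), which encodes GLUT4, was at 25.2, 33.5, 28.1 and 17.8 FPKM in WT1 to WT4 and at 15.1, 15.8, 14.99 and 20.6 FPKM in KO1 to KO4. The groups overlapped through WT4, the lowest WT library, and KO4, the highest KO-labelled one, which also stood apart in the macrophage markers. The mean fell from 26.2 ± 6.54 to 16.7 ± 2.68 FPKM (SD, n = 4; log2 fold change -0.61 ± 0.19, adjusted p = 0.0385). The call was kept without WT4 (-0.78, adjusted p = 0.00535) or without KO4 (-0.72, adjusted p = 0.0284) and lost without any other single library (adjusted p 0.0814 to 0.0995). Without both WT4 and KO4 the fold change was -0.89 (adjusted p = 0.00165), and without WT1 and WT2 it was -0.43 (adjusted p = 0.231). Skeletal muscle also uses GLUT4, and the 6 muscle markers summed to 14.9 to 45.4 FPKM in WT libraries and 9.05 to 11.0 FPKM in KO-labelled ones. Most of that was Acta1 (log2 fold change -1.28, adjusted p = 0.0123), while Ckm was at 0 in 6 of 8 libraries and Myh4 at 0 in 4. Mean levels in WT and KO-labelled libraries were 0.63 and 0.77 FPKM for Mylpf, which was not called. They were 0.22 and 0.21 FPKM for Tnnt3 and 0.070 and 0.028 FPKM for Myh1, both under the filter. The part of muscle in the Slc2a4 values was not tested.

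The calls of some of these genes depended on how libraries were scaled, beside the smaller share of the denominator that listed genes held in KO-labelled fat. When each library was scaled to sum to 1000000, the median over all genes went from -0.02 to 0.24 (log2 fold change), and 29.3% of genes were called higher and 8.26% lower. With that scaling 5 of the 10 genes were higher and 1 was lower, and their median was 0.43. Grb10 was then called higher (0.56, adjusted p = 0.0191) and Slc2a4 was no longer called lower (-0.35, adjusted p = 0.124). Slc2a4 was also not called with quantile normalization (-0.44, adjusted p = 0.0972) or with voom on recovered reads (-0.38, adjusted p = 0.0969). Akt2 moved to -0.12 (adjusted p = 0.460), and Pik3r1 turned from -0.14 to 0.13 without a call under either scaling. The calls of Insr, Irs1, Irs2, Slc2a1 and Grb14 were kept under each of the 4 other scalings tried.

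**Figure D2:**
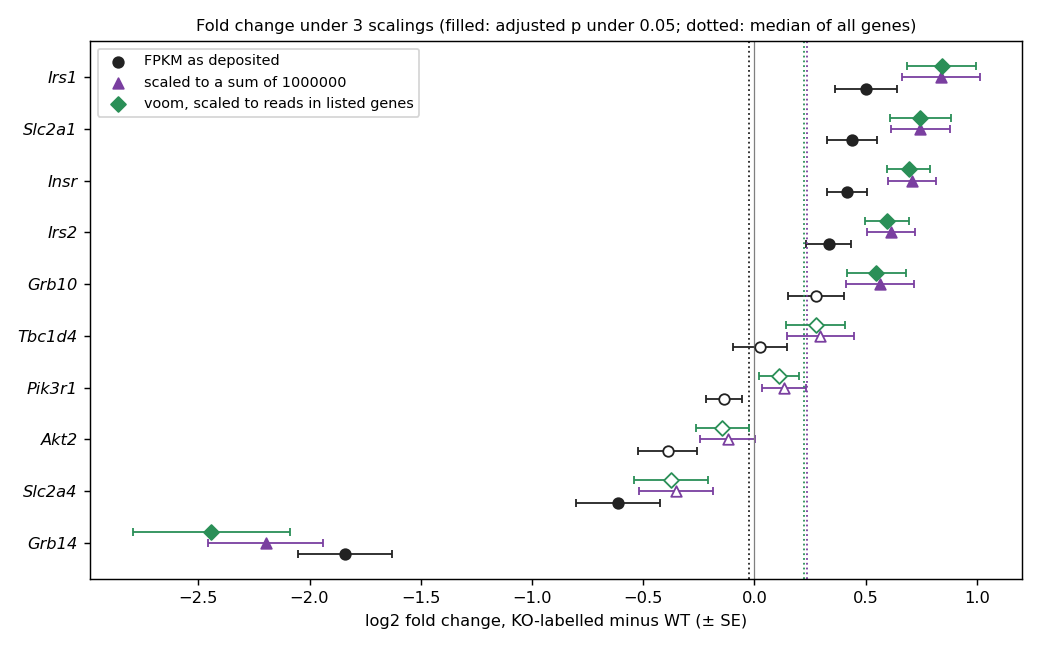
Log2 fold change of each gene, KO-labelled minus WT (horizontal axis, with SE as bars), with FPKM as deposited (black circles), scaled to a sum of 1000000 per library (purple triangles) and with voom on recovered reads (green diamonds). Filled symbols have an adjusted p under 0.05, and dotted lines give the median of all genes, which lay at -0.02, 0.24 and 0.22. The points of every gene but Grb14 lie further right under the latter scalings, and Slc2a4 is filled only with FPKM as deposited.

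Ratios of transcripts within a library do not move with its scaling. The ratio of Slc2a4 to Slc2a1, the insulin-responsive to the basal transporter, was 8.36, 8.43, 7.58 and 4.43 in WT1 to WT4 and 2.59, 3.45, 2.73 and 4.38 in KO1 to KO4. Every KO-labelled library was below every WT library, although WT4 and KO4 nearly met. The mean log2 ratio fell from 2.80 ± 0.442 to 1.68 ± 0.348 (SD, n = 4), a difference of -1.12 (exact two-sided permutation test, p = 0.0286, 0.0571 adjusted over the 4 ratios tested). That p is the smallest 4 against 4 libraries allow. The ratio of Grb10 plus Grb14 to Insr, inhibitors to receptor, was 1.26, 1.43, 1.20 and 1.34 in WT1 to WT4 and 0.837, 0.740, 0.918 and 0.875 in KO1 to KO4. Grb10 and Grb14 transcripts together thus outnumbered receptor transcripts per length in each WT library and in no KO-labelled one. The difference of the mean log2 ratios was -0.64 (exact permutation p = 0.0286, adjusted p = 0.0571). This sum joins Grb14, which was called lower, with Grb10, which was not. Grb10 alone was below Insr in each of the 8 libraries, so the ratio largely restates the calls of Grb14 and Insr. The log2 ratio of Irs2 to Irs1 differed by -0.25 with overlapping groups (exact permutation p = 0.114, adjusted p = 0.152). The log2 ratio of Pik3r1 to the catalytic subunits Pik3ca plus Pik3cb differed by 0.14, also with overlap (exact permutation p = 0.200, adjusted p = 0.200).

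**Figure D3:**
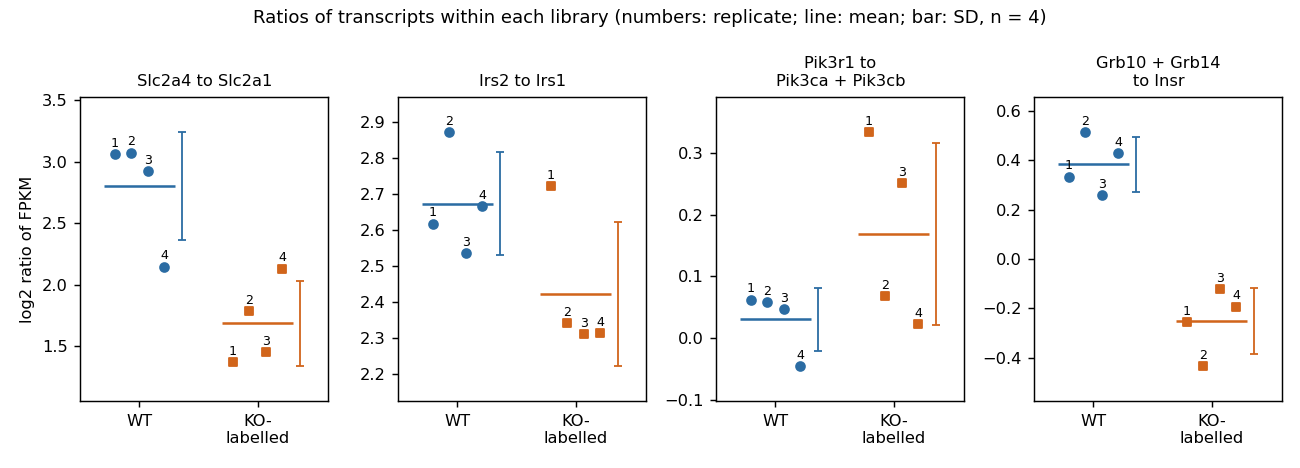
Log2 ratio of FPKM values within each library (vertical axes) for 4 pairs of transcripts or transcript sums, in WT (blue circles) and KO-labelled (orange squares) libraries numbered by replicate, with the mean as a line and the SD as a bar. The groups are apart for Slc2a4 to Slc2a1 and for Grb10 plus Grb14 to Insr, and overlap for the other ratios.

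The levels were also set against the adipocyte markers of the same library, as a description. The mean log2(FPKM + 0.5) of the 10 markers was 8.71 in WT and 7.71 in the KO-labelled group, a difference of -1.001, so subtracting it in each library raises the difference of every gene by that amount. After the subtraction every KO-labelled library was above every WT library for 74.7% of all tested genes and below for 0.833%. The same held upwards for 9 of the 10 genes, which is read against that background and says nothing particular about them. Their differences ran from 0.39 for Slc2a4 and 0.61 for Akt2 to 1.44 for Slc2a1 and 1.503 for Irs1. Grb14 had a difference of -0.84 with overlapping groups (exact two-sided permutation test, p = 0.0571). The marker set matters, since Lep, the leptin gene, had a log2 fold change of -3.34. With the marker mean taken without Lep, Slc2a4 differed by 0.13, Akt2 by 0.35 and Grb14 by -1.10. Their exact permutation p was then 0.229, 0.0571 and 0.0286. Against Adipoq alone, the adiponectin gene, Slc2a4 differed by 0.37 and Grb14 by -0.86 (exact permutation p = 0.0286 for each). Whether the groups overlapped for these genes thus depended on the marker set. What part the share of adipocytes has in the levels of the 10 genes was not tested.

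**Figure D4:**
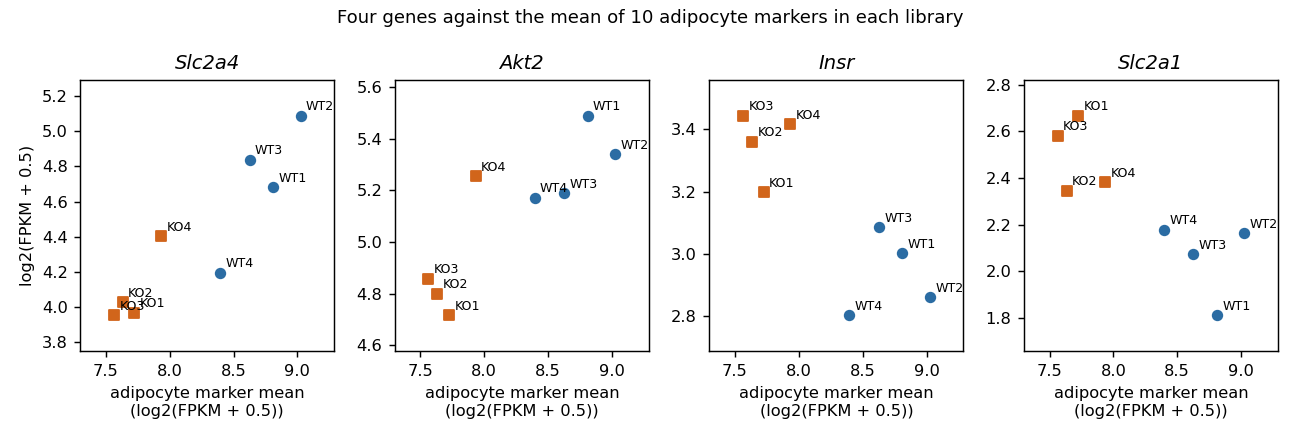
Level of Slc2a4, Akt2, Insr and Slc2a1 (vertical axes, log2(FPKM + 0.5)) against the mean of 10 adipocyte markers (horizontal axes, same scale) in each of the 8 libraries, WT as blue circles and KO-labelled as orange squares. WT4 has the lowest marker mean of its group and KO4 the highest of its own, and for Slc2a4 these are the libraries that overlap. Axes do not start at 0.

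Levels per length kept much of their order. In WT, Akt2 (38.99 FPKM) was above Slc2a4 (26.2 FPKM), and Pik3r1 and Irs2 followed with overlapping ranges. Insr, Grb10 and Tbc1d4 came next, each overlapping the next in order, and Slc2a1, Grb14 and Irs1 were lowest, again overlapping. In the KO-labelled libraries Akt2 was again highest (29.8 FPKM), but Irs2 (17.98 FPKM) and Slc2a4 (16.7 FPKM) overlapped and Grb14 was below every other gene. Irs2 was above Irs1 in each of the 8 libraries.

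By the smallest root mean square difference between centred log2(FPKM + 0.5) profiles over the 8 libraries, among 12267 genes, the genes most like Irs1 were Ebf1 (0.0485), Pnpt1 (0.0587) and Qser1 (0.0785). Those most like Grb14 were 3110045C21Rik (0.177), Gm3571 (0.235) and Rims4 (0.242). These genes were picked for their likeness, so their own fold changes are not a separate result.

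Around these 10 genes, 97 other genes of the pathway were set in 7 lists, also with earlier results of these data known. Of the 97 genes, 95 were in the table and 90 passed the filter. Of these 90, 12 were higher and 18 lower, beside the 11.7% and 18.6% of all genes. Their median log2 fold change was 0.05. Scaled to a sum of 1000000, 40 were higher and 7 lower, beside 29.3% and 8.26% of all genes. The balance of directions thus follows the scaling, in these genes as in all genes. Without WT1 and WT2, 6 were higher and 7 lower, beside 5.01% and 7.19% of all genes. The counts of each list below are to be read against the shares of all genes in the same fit. Of the genes named from these lists below, Pck1, which had no call, changed its sign under 3 of the 4 other scalings. The calls of Ptpn2, Pik3cb, Mapkap1, Rptor, Myo1c, Slc2a10, Slc2a13, Foxo3 and Deptor were lost without WT1 and WT2 (limma adjusted p 0.0811 to 0.1165). That fit had fewer libraries.

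Upstream, among 12 tested receptor and adaptor genes, 2 were higher and 2 lower. Scaled to a sum of 1000000 it was 5 and 2, beside 29.3% and 8.26% of all genes. Igf1r, the receptor for insulin-like growth factor, rose from 1.31 ± 0.140 to 2.38 ± 0.142 FPKM (0.67 on the log2 scale, adjusted p = 0.00102). Sh2b2, which encodes the receptor adaptor APS, also rose (0.55, adjusted p = 0.00875). Irs3, a substrate gene that is expressed in rodent adipocytes, fell from 21.6 ± 1.91 to 9.98 ± 1.22 FPKM (-1.08, adjusted p = 0.000196), unlike Irs1 and Irs2. Irs3 was thus above Irs2 in each WT library and below it in each KO-labelled library. Among 14 brakes on the receptor and on PI3 kinase signalling, 2 phosphatase genes were higher and none was lower. The list had 8 higher and 0 lower scaled to a sum of 1000000, where 29.3% and 8.26% of all genes were called. With voom it had 8 higher and 1 lower, beside 30.5% and 8.79% of all genes. Without WT4 and KO4 it had 5 higher and 1 lower, beside 14.1% and 18.7% of all genes. The phosphatase genes were Ptpn2 (0.46, adjusted p = 0.0169) and Ptprf (0.53, adjusted p = 0.0302), and Ptprf lost its call without WT1, WT3, WT4, KO1, KO2 or KO3 (adjusted p up to 0.0810).

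Among the 8 other PI3 kinase subunits, 2 were lower and none was higher, and scaled to a sum of 1000000 it was 1 lower and 2 higher. The catalytic subunit Pik3cb fell from 6.72 ± 0.311 to 4.51 ± 0.991 FPKM (-0.55, adjusted p = 0.0142), and the regulatory subunit Pik3r3 fell from 3.09 ± 0.259 to 1.80 ± 0.208 FPKM (-0.64, adjusted p = 0.00159). Among 12 kinases of the AKT branch and their partners, 2 were lower and none higher. Scaled to a sum of 1000000 this turned to 6 higher and 0 lower, beside 29.3% and 8.26% of all genes. The lower calls were Mapkap1, an mTORC2 subunit (-0.31, adjusted p = 0.0150), and Rptor, the defining subunit of mTORC1 (-0.31, adjusted p = 0.0175), and Rptor lost its call without KO3 (adjusted p = 0.0515). The related kinase Akt1 was at 23.1 ± 1.79 and 24.2 ± 3.01 FPKM (0.06, adjusted p = 0.701), and scaled to a sum of 1000000 it was called higher (0.33, adjusted p = 0.0394). Scaled to a sum of 1000000, Pik3cb, Mapkap1 and Rptor were no longer called (adjusted p = 0.115, 0.655 and 0.542).

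Among 20 genes of GLUT4 vesicle traffic, 3 were higher and 5 lower. Scaled to a sum of 1000000 it was 10 and 1, beside 29.3% and 8.26% of all genes. Tbc1d1, a paralog of Tbc1d4, rose from 3.25 ± 0.644 to 5.32 ± 0.212 FPKM (0.65, adjusted p = 0.00394) while Tbc1d4 itself was not called. Rala, a GTPase of vesicle delivery, fell from 15.9 ± 0.260 to 10.6 ± 0.692 FPKM (-0.57, adjusted p = 0.000613). Rhoq, which encodes the GTPase TC10, fell (-0.59, adjusted p = 0.00758), as did the motor gene Myo1c (-0.45, adjusted p = 0.00976), and both lost the call scaled to a sum of 1000000 (adjusted p = 0.0833 and 0.126). Among 7 other hexose transporters, 2 were higher and 3 lower, against 3 and 2 with that scaling. Slc2a3, which encodes GLUT3, rose from 0.871 ± 0.379 to 2.02 ± 0.410 FPKM (0.91, adjusted p = 0.0151). GLUT3 is also made by leukocytes, and 3 of 10 macrophage markers were called higher and none lower, beside 11.7% and 18.6% of all genes. The macrophage marker sums were 354 to 1135 FPKM in WT libraries and 467 to 1075 FPKM in KO-labelled ones. WT4 had the highest sum of its group and KO4 the lowest of its own. Slc2a3 was at 0.374, 1.29, 0.861 and 0.960 FPKM in WT1 to WT4. In KO1 to KO4 it was at 2.57, 1.58, 1.97 and 1.95 FPKM. The part of macrophages in the rise of Slc2a3 was not tested. Slc2a12, which encodes GLUT12, fell from 2.17 ± 0.638 to 0.505 ± 0.0736 FPKM (-1.38, adjusted p = 0.000684). Slc2a13, the proton myo-inositol transporter gene, fell (-0.81, adjusted p = 0.0130), and so did Slc2a10 (-0.37, adjusted p = 0.0217), which lost the call without WT1, WT3, KO3 or KO4 and scaled to a sum of 1000000 (adjusted p = 0.306). Slc2a2, the GLUT2 gene of liver, was under the filter, at 0.593 ± 0.183 FPKM in WT against 0.162 ± 0.0481 FPKM.

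Among 17 tested outputs of insulin signalling, 3 were higher and 4 lower. Scaled to a sum of 1000000 it was 6 and 1, beside 29.3% and 8.26% of all genes. Pdk4, which encodes an inhibitor of pyruvate dehydrogenase and is a known FOXO1 target, rose from 18.2 ± 2.89 to 78.5 ± 20.2 FPKM (2.05, adjusted p = 0.000163), the largest fold change in the 7 lists. Foxo3 rose (0.49, adjusted p = 0.00982). Eif4ebp1, a translation repressor that mTORC1 inactivates, fell from 65.3 ± 14.2 to 29.3 ± 4.51 FPKM (-1.13, adjusted p = 0.00200). Deptor, an mTOR inhibitor gene, fell (-0.43, adjusted p = 0.0121) and was not called scaled to a sum of 1000000 (adjusted p = 0.247). Pck1, which insulin represses, was at 207 ± 51.5 and 198 ± 63.8 FPKM (-0.07, adjusted p = 0.848), and scaled to a sum of 1000000 its fold change was 0.20 (adjusted p = 0.517). Pck1 and Akt1 were named after their values were seen.

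**Figure D5:**
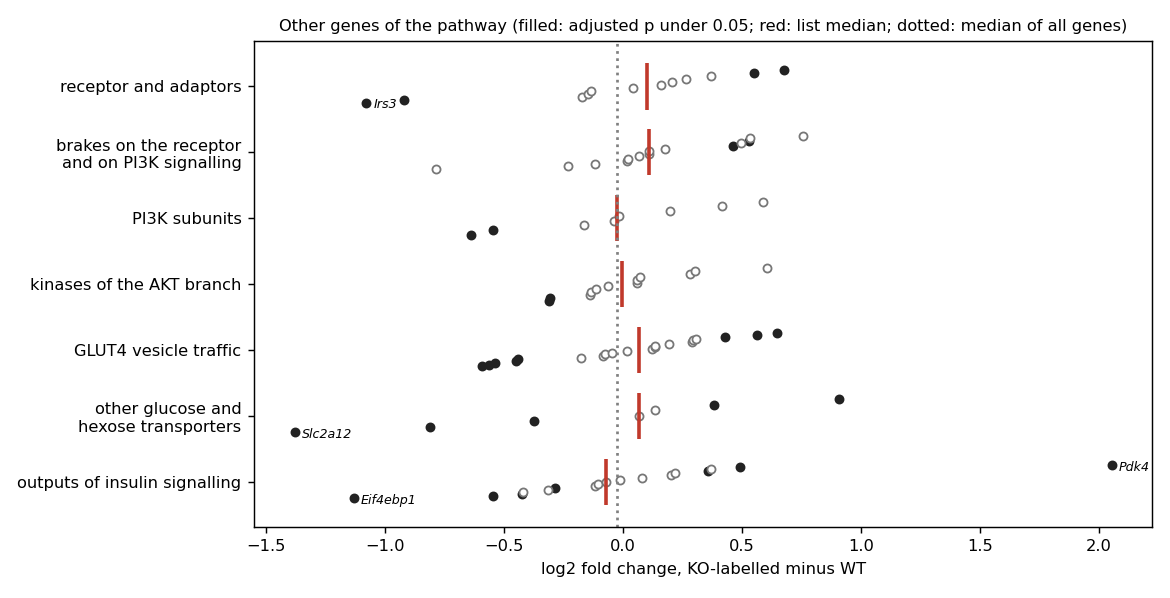
Log2 fold change, KO-labelled minus WT (horizontal axis), of each of the 90 tested pathway genes in 7 lists (rows). Filled points have an adjusted p under 0.05, red bars are list medians and the dotted line is the median of all genes (-0.02). The list medians lie between -0.07 and 0.11, and Pdk4 lies furthest right and Slc2a12 furthest left.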

How the data were processed

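RNA was poly(A)-selected, fragmented and primed with random hexamers, per the labels' protocols. Per the submitters' processing notes, HISAT2 2.0.5, featureCounts and genome mm10 were used. The annotation release and strand setting are not given in the sources used here. What the authors deposited is 1 FPKM table with a column for each of the 8 libraries.

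Symbols were assigned by gene ID (99.9% matched, GENCODE M21, mm10), which also gave the coordinates and exon lengths. Of values between 0.5 and 200 reads, 98.1% were whole reads within 0.05, for 27899 genes (98.6%). The test was limma 3.58.1 in R 4.3.3 (trend, robust, two-sided) on log2(FPKM + 0.5) in all 8 libraries with no covariate, over genes with a mean of at least 0.5 FPKM. Ratios within a library had exact permutation tests. Tables and plots used Python 3.11.15, pandas 2.3.3, scipy 1.17.1 and matplotlib 3.10.9. The fit was tested on simulated data.

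The 10 genes and all lists were chosen with earlier results of these data known. From each pathway list, up to 4 called genes with the smallest adjusted p were named, and for the largest rise and fall among the 10 genes the 3 most similar profiles. Alternatives were other pseudocounts, filters, scalings, no trend, a replicate block, protein-coding genes only and left-out libraries. Leaving out WT4 and KO4 for the values relative to adipocyte markers was added after the data were seen. The values of some genes in the lists are not reported here.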

Additional observations from a re-analysis of the deposited data

Results flagged for a closer look

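In 5 of 28 groups of 4 values screened, 1 library lay far from the other 3 by Dixon's criterion, where chance gives about 1 in 20 groups. Grb10 was at 7.79 FPKM in WT3, above the other WT libraries. Slc2a4 was at 20.6 FPKM in KO4, above the other KO-labelled libraries. The log2 ratio of Slc2a4 to Slc2a1 was 2.15 in WT4, below the other WT libraries. The log2 ratio of Irs2 to Irs1 was 2.72 in KO1, above the other KO-labelled libraries. The log2 ratio of Pik3r1 to Pik3ca plus Pik3cb was -0.0456 in WT4, below the other WT libraries. WT4 appeared for 2 of the ratios, and WT4 and KO4 are also the libraries that stood apart in adipocyte and macrophage markers. What set these values apart was not tested.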

How the results depend on the processing

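Of the 10 genes, 4 were called higher and 2 lower. Shares in brackets are those of all genes called in that direction by the same fit. The number called lower was 1 with no filter on low values (7.81%), scaled to a sum of 1000000 (8.26%) and with quantile normalization (14.5%). It was also 1 with voom (8.79%), with the replicate block (13.9%) and without WT1 and WT2 (7.19%). It was 3 with a mean of at least 1 FPKM (21.4%), with protein-coding genes only (21.7%) and without WT4 and KO4 (18.7%). When single libraries were left out it was 1 to 3 (12.9% to 19.5%). The number called higher was 2 with no filter (5.4%), with the replicate block (7.73%) and without WT4 and KO4 (14.1%). It was 5 scaled to a sum of 1000000 (29.3%) and with voom (30.5%), and 1 to 5 when single libraries were left out (7.56% to 13.5%). Without WT1 and WT2, limma called 0 higher (5.01%), while 3 were higher at an unadjusted p under 0.05. No other tool was run on those 6 libraries, with fewer samples in the fit. Over 21 alternatives, calls were made for Grb14 in 21, Insr in 20, Slc2a1 in 18, Irs1 in 12, Irs2 in 11, Slc2a4 in 9, Akt2 in 4, Grb10 in 3, and Pik3r1 and Tbc1d4 in 0. Pik3r1 turned to 0.13 scaled to a sum of 1000000, 0.012 with quantile normalization and 0.11 with voom. Tbc1d4 ran from -0.053 to 0.12 when single libraries were left out, and was -0.0068 without WT1 and WT2 and -0.032 without WT4 and KO4. The cause of these changes was not tested. Every one of the 4 ratios kept its sign under all alternatives run on it. The ratios were taken without a pseudocount. With 0.5 added to each FPKM value, the exact permutation adjusted p of Slc2a4 to Slc2a1 went from 0.0571 to 0.114. That of Grb10 plus Grb14 to Insr went from 0.0571 to 0.114 as well. With the replicate block the adjusted p was 0.0337 for Insr, 0.0424 for Irs1, 0.0540 for Irs2, 0.0722 for Slc2a1, 0.104 for Slc2a4 and 0.00888 for Grb14. Same-numbered WT and KO-labelled libraries correlated at -0.317 to 0.169 in their deviations from group means. No WT library correlated best with its own number, and of the KO-labelled libraries only KO3 did. These correlations showed no clear pairing by number. With 4 libraries per group they cannot exclude one, and the labels do not give the mouse behind each library. Grb14 in the KO-labelled libraries rests on few reads, which limits its precision.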
